A study of Mus musculus with 16 samples.

Results

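The 47 genes described here carry out or mark cell division: the kinases and cyclins of mitotic entry, the proteins that build the spindle and attach it to chromosomes, the checkpoint that times anaphase, and the machinery of cytokinesis and chromosome condensation. They were taken by symbol from a table of raw read counts per gene, in which all 47 were found among 54392 symbols. The table came from colonocytes, the epithelial cells lining the colon, of C57BL/6 mice given for 3 weeks either corn oil with cellulose (9 libraries) or fish oil with pectin (7 libraries). The labels name no other genotype, treatment or age for either group, and the study set the diets side by side. Single libraries are called CC (corn oil/cellulose) or FP (fish oil/pectin) with the number in their label. Every member passed the filter on low counts, with 84 to 4939 counts per library.

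Mitosis is the stage at which replicated chromosomes are condensed, attached to a spindle of microtubules and pulled apart. Most of its genes are silent in resting cells and are transcribed together late in the cell cycle, and their proteins are removed again by ubiquitination as the cell exits mitosis. In the colon, dividing cells lie in the lower part of the crypts, and the mature cells near the lumen no longer divide, so levels in a whole colonocyte preparation follow both the share of dividing cells and the RNA per cell, which bulk libraries cannot tell apart.

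Promoters of late cell cycle genes are known for 2 short elements, the cell cycle genes homology region (CHR, letters TTTGAA or TTCGAA) bound by the DREAM and MuvB complexes, and the CCAAT box bound by NF-Y. Both were looked for on either strand, so that TTCAAA is TTTGAA and ATTGG is CCAAT read on the other strand. The windows ran from 250 bases before to 50 bases after the RefSeq start (build GRCm38.p6), and 39 members had one. CHR letters were found in 31 of the 39 (79.5%), against 21.7% of all 27025 symbols with a window and 16.5% of the 10237 symbols whose genes were tested between the diets. CCAAT was found in 28 (71.8%, against 41.1% and 42.9%), and both together in 26 (66.7%, against 8.61% and 6.86%). At least 2 CCAAT boxes were found in 18 of the 39 (46.2%, against 13.3% and 16.4%). In the 150 bases before the start alone, CHR letters were in 14 of the 39 (35.9%, against 11.2% and 7.77%) and both words in 12 (30.8%, against 2.85% and 2.41%). Words this short occur by sequence composition alone, and a match is a description of the letters and not of binding.

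The stretches below show these letters, in capitals, in 7 members that hold both words close to the start and in Pttg1. Pttg1 differed from the other members in its levels and holds neither in its window. That window (43425932 to 43426231, minus strand) lies within the annotated gene (43420250 to 43426251), so bases upstream of the gene were not searched. Birc5, Mad2l1, Ncaph, Nuf2 and Nusap1 also hold neither in their windows, and all of them passed the test between diets. Their levels followed the mean of the other members, with a Pearson r from 0.83 for Birc5 to 0.97 for Nuf2. The Mad2l1 window (66534971 to 66535270, plus strand) ends before the annotated gene begins, at 66535390, so bases next to that start were not searched. Cdk1, Ube2c and Cdc20 stand for the members with large diet differences, Top2a for the one with the most words, Kif11 for a small difference that passed, and Mki67 and Espl1 for members that did not pass. They lie at chr10:69352913-69353032 (minus strand), chr2:164769809-164769918 (plus), chr4:118437344-118437463 (minus), chr11:99024190-99024349 (minus), chr19:37376262-37376381 (plus), chr7:135716460-135716579 (minus), chr15:102296173-102296292 (plus) and chr11:43425982-43426101 (minus).
Cdk1: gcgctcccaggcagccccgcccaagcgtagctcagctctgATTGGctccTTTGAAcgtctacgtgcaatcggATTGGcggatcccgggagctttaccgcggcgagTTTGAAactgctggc
Ube2c: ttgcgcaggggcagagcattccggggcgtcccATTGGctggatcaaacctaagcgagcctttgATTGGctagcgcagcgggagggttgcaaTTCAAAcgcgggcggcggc
Cdc20: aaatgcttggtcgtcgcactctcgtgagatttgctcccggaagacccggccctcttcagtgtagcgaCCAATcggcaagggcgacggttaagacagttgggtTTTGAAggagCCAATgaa
Top2a: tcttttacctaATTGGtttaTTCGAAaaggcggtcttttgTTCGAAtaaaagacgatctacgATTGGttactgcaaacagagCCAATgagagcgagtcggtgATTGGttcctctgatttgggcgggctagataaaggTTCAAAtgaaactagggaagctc
Kif11: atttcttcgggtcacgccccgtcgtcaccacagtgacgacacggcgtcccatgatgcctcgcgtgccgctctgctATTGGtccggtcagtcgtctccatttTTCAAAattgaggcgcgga
Mki67: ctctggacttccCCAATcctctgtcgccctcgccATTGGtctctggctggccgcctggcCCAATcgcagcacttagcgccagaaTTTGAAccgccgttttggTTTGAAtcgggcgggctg
Espl1: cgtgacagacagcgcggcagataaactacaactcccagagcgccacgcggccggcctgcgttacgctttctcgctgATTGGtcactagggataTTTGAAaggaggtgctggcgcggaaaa
Pttg1: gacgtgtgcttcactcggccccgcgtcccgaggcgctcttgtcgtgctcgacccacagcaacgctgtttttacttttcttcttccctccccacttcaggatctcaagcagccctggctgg
CHR letters were held by 20 of the 27 members with a window that passed the test between diets, and by 11 of the 12 that did not. The letters alone therefore did not separate the members that passed from those that did not.

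Library totals ran from 13996288 to 19512755 counts. Library names had 2 forms, 10 beginning with GC (5 per diet) and 6 not (4 corn oil/cellulose and 2 fish oil/pectin). The sources used here do not say what sets the forms apart. The form was a term in the edgeR fit, and Y-linked genes were at 2710 to 4363 counts in 9 libraries, all 6 without GC among them, and at 0 to 3 counts in the other 7. All 10 epithelial markers were detected, with summed levels of 19124 to 23656 CPM (counts scaled to the library total times its TMM factor) with corn oil/cellulose and 19370 to 33659 CPM with fish oil/pectin, and 7 of the 10 rose. In GC-named libraries the sums were 22399 to 23656 CPM with corn oil/cellulose and 27874 to 33659 CPM with fish oil/pectin. In the others they were close, at 19124 to 19763 and 19370 to 19438 CPM. Of 9 crypt base stem cell markers tested 1 rose and 3 fell (median log2 fold change -0.14). Of 10 mature colonocyte markers 2 rose and 1 fell (median 0.085). Among all genes tested 22.1% rose and 20.6% fell, and the part of these markers in the results below was not tested. All 7 B and plasma cell markers were under 1 CPM in every library, as were 8 of 10 fibroblast and smooth muscle markers. The 12 T and NK cell markers summed to 48.7 to 95.6 CPM with corn oil/cellulose and 22.0 to 44.9 CPM with fish oil/pectin in GC-named libraries, and to 14.8 to 23.6 and 17.5 to 23.6 CPM in the others. The part of the T and NK cell markers in the results below was not tested on its own. A covariate over all non-epithelial markers was fitted, and its effect is given with the count it moved.

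Members of all 7 functional groups rose with fish oil/pectin. In the fit to all 16 libraries, 33 of the 47 members rose and 0 fell at an edgeR adjusted p under 0.05, where 22.1% of all 13825 genes tested rose and 20.6% fell. All 47 estimates were above 0 (46 scaled by DESeq2 size factors and 43 by total counts alone), with a median log2 fold change of 0.44, against -0.0053 over all genes tested. Total-count scaling moved the median of all genes to -0.075 and the split of calls over all genes from 3055 higher and 2854 lower to 2247 and 3695, and left 28 members higher at a median of 0.37. The rises were moderate, from 1.15-fold for Pttg1, the securin gene, to 1.96-fold for Birc5, which encodes survivin, with a median of 1.48-fold over the 33. A further 6 members had an unadjusted p under 0.05 without passing after adjustment. With no term for the name form 26 members rose, where 20.3% of genes tested did, and Nusap1, Kif11, Bub1b, Pttg1, Prc1, Kif20a and Top2a did not pass (adjusted p from 0.0693 to 0.341). Scaled by total counts, Kif11, Bub1b, Pttg1, Kif2c and Kif20a did not (0.0608 to 0.118).

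**Figure D1:**
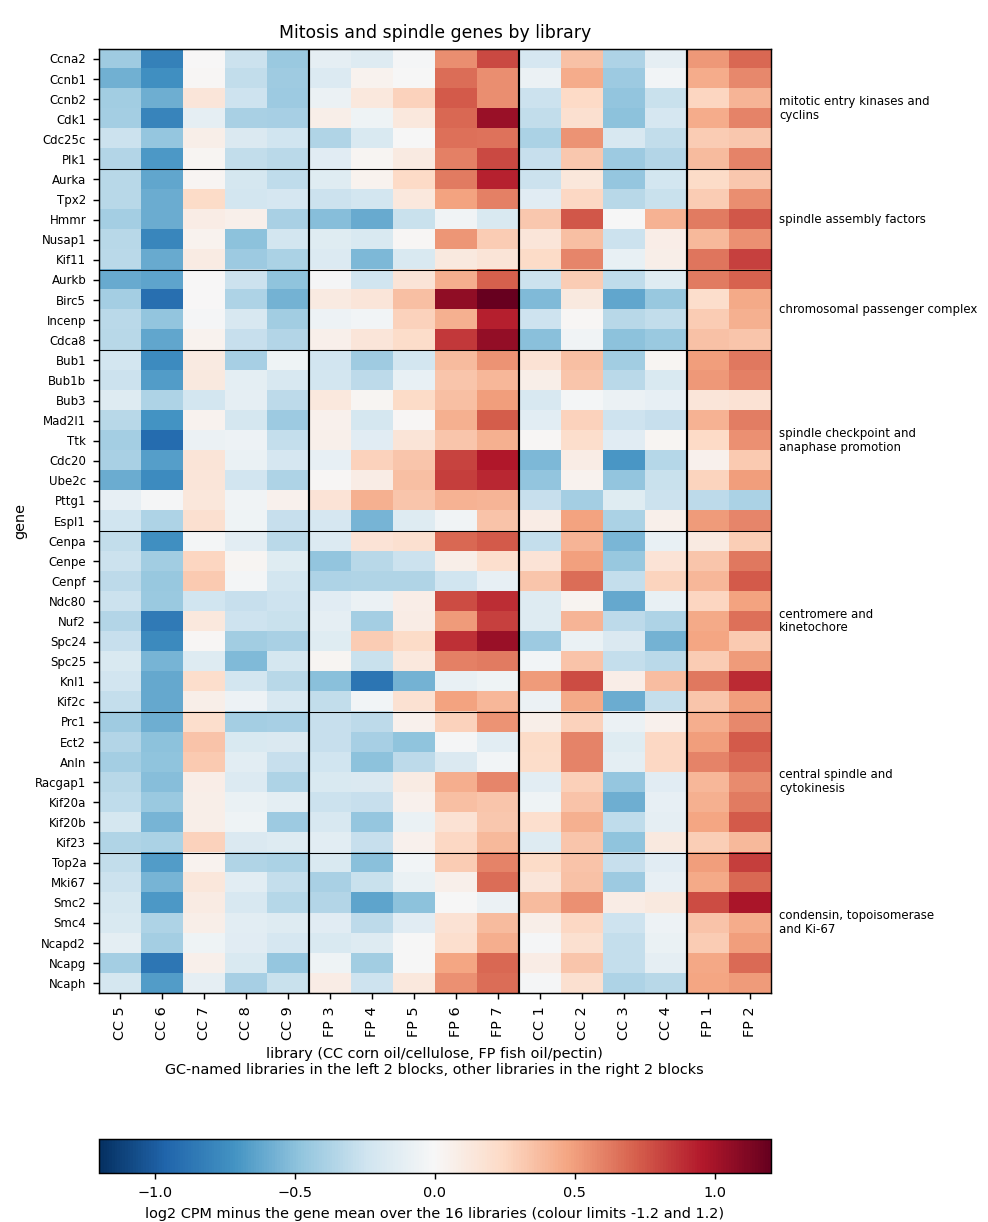
Log2 CPM of each of the 47 members minus its mean over the 16 libraries, with members as rows grouped by function and libraries as columns (CC corn oil/cellulose, FP fish oil/pectin, numbers from the labels), in 4 blocks by name form and diet. Colours run from -1.2 (blue) to 1.2 (red), and most members are red in FP 6, 7, 1 and 2 and blue in CC 6, while Pttg1 follows another pattern.

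The members moved together from library to library. The mean over members of centred log2 CPM was -0.60 in CC 6, the lowest, and 0.54, 0.54, 0.40 and 0.38 in FP 7, 2, 6 and 1. FP 3, 4 and 5 were at -0.15, -0.20 and 0.018, inside the corn oil/cellulose range, whose highest values were 0.31 in library 2 and 0.073 in library 7. So 4 fish oil/pectin libraries lay above every corn oil/cellulose library and 3 did not. Without FP 6 and 7 together, 20 members rose with a median of 0.31, where 15.4% of genes tested rose. Tpx2, Nusap1, Kif11, Bub1b, Pttg1, Cenpa, Nuf2, Kif2c, Prc1, Kif20a, Top2a, Ncapd2 and Ncapg then did not pass (adjusted p from 0.0571 to 0.196). Leaving out 1 library at a time left 28 to 38 members higher. Over all genes tested, 2624 of 13753 (without CC 6) to 3087 of 13764 (without CC 3) were higher in these fits. FP 7 was also low in distal colon markers, which summed to 147 CPM there and to 320.0 to 629 CPM with corn oil/cellulose. The non-epithelial marker score was the scaled mean log2 CPM over all detected lymphocyte, myeloid, fibroblast and endothelial markers, each with equal weight. With this score as a covariate 4 members passed (Cdk1, Cdca8, Bub3 and Ncaph), at a median of 0.46, where 3.32% of genes tested rose.

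**Figure D2:**
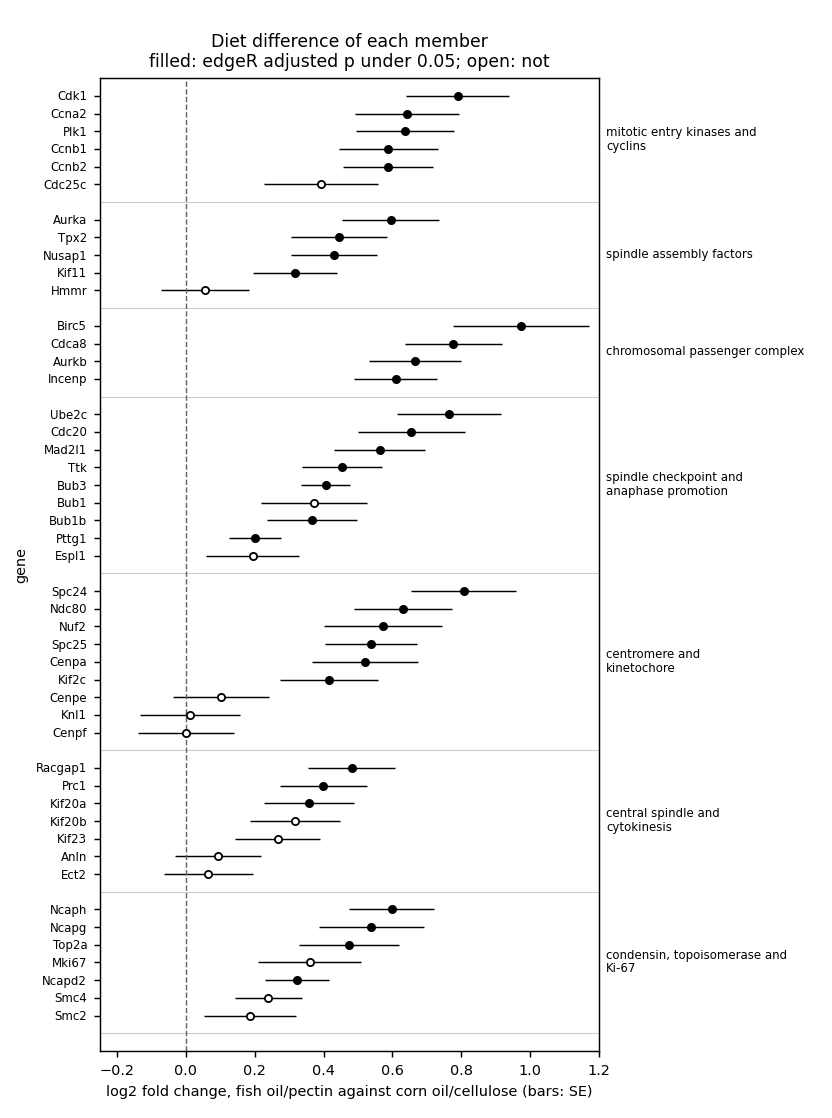
Log2 fold change of each member, fish oil/pectin against corn oil/cellulose, from the edgeR fit to 16 libraries, with members grouped by function and bars showing the standard error. Filled points are the 33 with an adjusted p under 0.05 and open points the 14 without, and all lie at or above 0, from 0.00017 for Cenpf to 0.97 for Birc5.

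Of the 6 genes of mitotic entry 5 rose, with a median log2 fold change of 0.61. Cdk1 (chromosome 10, 69335146 to 69352938, minus strand, GRCm38), the kinase that starts mitosis once bound to a B-type cyclin, was at 26.2, 34.1, 34.5, 34.7 and 42.1 CPM with corn oil/cellulose and 43.8, 47.6, 49.4, 72.99 and 92.9 CPM with fish oil/pectin in GC-named libraries. In the other libraries it was at 32.3, 36.9, 39.4 and 51.9 CPM and 61.9 and 68.4 CPM. The diets did not overlap within either name form, and CC 2, the highest of its diet, lay above 3 of the GC-named fish oil/pectin libraries. The difference was 0.79 ± 0.15 (log2, SE; edgeR adjusted p = 0.000954), a 1.73-fold rise.

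Ccnb1 and Ccnb2 encode the cyclins that activate Cdk1. For Ccnb1 the lowest, median and highest levels were 10.9, 14.8 and 24.7 CPM with corn oil/cellulose and 16.2, 24.7 and 28.8 CPM with fish oil/pectin, with overlap, and it rose by 0.59 ± 0.14 (adjusted p = 0.00403). Ccnb2 ran over 31.6, 39.4 and 56.01 CPM and 45.1, 57.3 and 78.8 CPM and rose by the same amount, 0.59 ± 0.13 (adjusted p = 0.00223). In both genes CC 2 and 7 lay within the fish oil/pectin range, and in Ccnb1 CC 1 and 4 did as well. Plk1, the polo kinase that acts from entry to cytokinesis, was at 24.1, 30.98 and 48.5 CPM and 35.3, 50.3 and 67.2 CPM (lowest, median, highest) and rose by 0.64 ± 0.14 (adjusted p = 0.00247). Ccna2, whose cyclin acts from S phase to early mitosis, rose by 0.64 ± 0.15 (adjusted p = 0.00319). Cdc25c, a phosphatase that removes the inhibitory phosphates of Cdk1, was the lowest of all members per kb of summed exon. Its difference was 0.39 (adjusted p = 0.0642), past the threshold without CC 2 (0.0168) or FP 3 (0.0298) or 4 (0.0452). Of their exon bases 12.5% in Ccna2 and 12.7% in Cdc25c overlap a gene on the opposite strand, and whether strand was used in counting is not stated.

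Of the 5 spindle assembly factors 4 rose, with a median of 0.43. Aurka (chromosome 2, 172356190 to 172370535, minus strand), the aurora kinase of centrosomes, was at 14.9, 18.3, 18.6, 19.8 and 23.3 CPM with corn oil/cellulose and 20.7, 23.7, 27.1, 35.4 and 43.7 CPM with fish oil/pectin in GC-named libraries, and at 16.6, 19.2, 19.7 and 25.2 CPM and 26.8 and 28.7 CPM in the others. The diets overlapped within the GC form alone. It rose by 0.59 ± 0.14 (adjusted p = 0.00324). Nusap1, which bundles spindle microtubules around chromosomes, was at 19.5, 28.8 and 43.3 CPM and 29.6, 41.6 and 49.1 CPM (lowest, median, highest) and rose by 0.43 ± 0.12 (adjusted p = 0.0105), and did not pass with no name form term (0.0720). Tpx2, the activator of Aurka on the spindle, rose by 0.44 ± 0.14 (adjusted p = 0.0169). Kif11, the kinesin that pushes the spindle poles apart, rose by 0.32 ± 0.12 (adjusted p = 0.0434). That call held without CC 2 or 7 or FP 3, 4 or 5, and was lost without any 1 of the other 11 libraries, with adjusted p-values from 0.0581 to 0.117. Hmmr, a spindle pole protein, was at 10.9, 17.1 and 27.5 CPM and 10.8, 14.4 and 27.5 CPM and did not pass (0.055 ± 0.13, adjusted p = 0.756).

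All 4 genes of the chromosomal passenger complex rose, with a median of 0.72. This complex corrects faulty attachments at centromeres and later moves to the midzone. Birc5 (chromosome 11, 117849251 to 117855743, plus strand), its survivin subunit, had the highest log2 fold change of the 47, 0.97 ± 0.20 (adjusted p = 0.00142). With corn oil/cellulose it was at 17.5, 22.1, 24.7, 25.4 and 32.8 CPM under the GC form and 21.2, 22.7, 23.9 and 35.5 CPM outside it. With fish oil/pectin it was at 35.4, 36.2, 42.1, 68.6 and 84.96 CPM and 37.8 and 44.96 CPM. FP 6 and 7 stood well above the rest, and the difference was 0.65 (adjusted p = 0.00256) without both.

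Cdca8, the borealin gene, was 1 of 2 members, with Bub3, whose fish oil/pectin libraries all lay above all corn oil/cellulose libraries, as 2.32% of genes tested did. Its levels were 21.1, 25.4 and 33.4 CPM with corn oil/cellulose and 33.8, 40.8 and 67.3 CPM with fish oil/pectin (lowest, median, highest), a rise of 0.78 ± 0.14 (adjusted p = 0.000780). Incenp, the scaffold of the complex, was at 41.4, 46.6 and 57.97 CPM and 54.8, 70.9 and 109 CPM and rose by 0.61 ± 0.12 (adjusted p = 0.00115). Its diets overlapped only through CC 2 and 7, which were above the lowest fish oil/pectin libraries. Aurkb, the kinase subunit, was at 13.4, 17.3 and 25.6 CPM and 17.5, 27.98 and 34.04 CPM and rose by 0.67 ± 0.13 (adjusted p = 0.00119), also with overlap.

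Of the 9 genes of the spindle checkpoint and of anaphase promotion 7 rose, with a median of 0.41. The checkpoint proteins Bub1, Bub1b, Bub3, Mad2l1 and Ttk hold back anaphase until every kinetochore is attached, and Cdc20 and Ube2c then turn on the ubiquitin ligase APC/C, which frees separase (Espl1) from securin (Pttg1). Bub3 (chromosome 7, 131560222 to 131571895, plus strand) had the lowest adjusted p of the 47. It was at 48.5, 50.3, 53.6, 56.2 and 58.3 CPM with corn oil/cellulose and 63.5, 68.2, 73.5, 80.2 and 88.5 CPM with fish oil/pectin in GC-named libraries, and at 54.7, 58.6, 59.6 and 61.6 CPM and 69.3 and 70.6 CPM in the others. The means were 55.7 ± 4.36 CPM (SD, n = 9) and 73.4 ± 8.40 CPM (SD, n = 7), and the libraries of each diet lay close together without overlap, so that a 1.33-fold rise (0.41 ± 0.071) had an edgeR adjusted p of 0.000635.

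Ube2c, the ubiquitin-conjugating enzyme of the APC/C, was at 25.8, 33.8 and 48.3 CPM with corn oil/cellulose and 43.9, 56.1 and 81.9 CPM with fish oil/pectin (lowest, median, highest). It rose by 0.76 ± 0.15 (adjusted p = 0.00112), with CC 2 and 7 inside the fish oil/pectin range. Tnnc2 overlaps 22.8% of its exon bases on the opposite strand. Cdc20 rose by 0.65 ± 0.16 (adjusted p = 0.00352), Mad2l1 by 0.56 ± 0.13 (adjusted p = 0.00308) and Ttk by 0.45 ± 0.12 (adjusted p = 0.00515). Bub1b rose by 0.37 ± 0.13 (adjusted p = 0.0307), a call that was lost without FP 1, 2, 6 or 7 or CC 4 or 6 (adjusted p from 0.0502 to 0.0744).

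Bub1, the kinase that recruits the other checkpoint proteins, was at 9.81, 15.99 and 21.3 CPM with corn oil/cellulose and 12.4, 21.5 and 25.8 CPM with fish oil/pectin. The diets overlapped over most of their ranges and the difference of 0.37 ± 0.15 did not pass (adjusted p = 0.0595), and did without CC 2 or 7 or FP 3, 4 or 5 (0.0277 to 0.0478). Espl1, the separase gene, did not pass either (0.19 ± 0.13, adjusted p = 0.258).

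**Figure D3:**
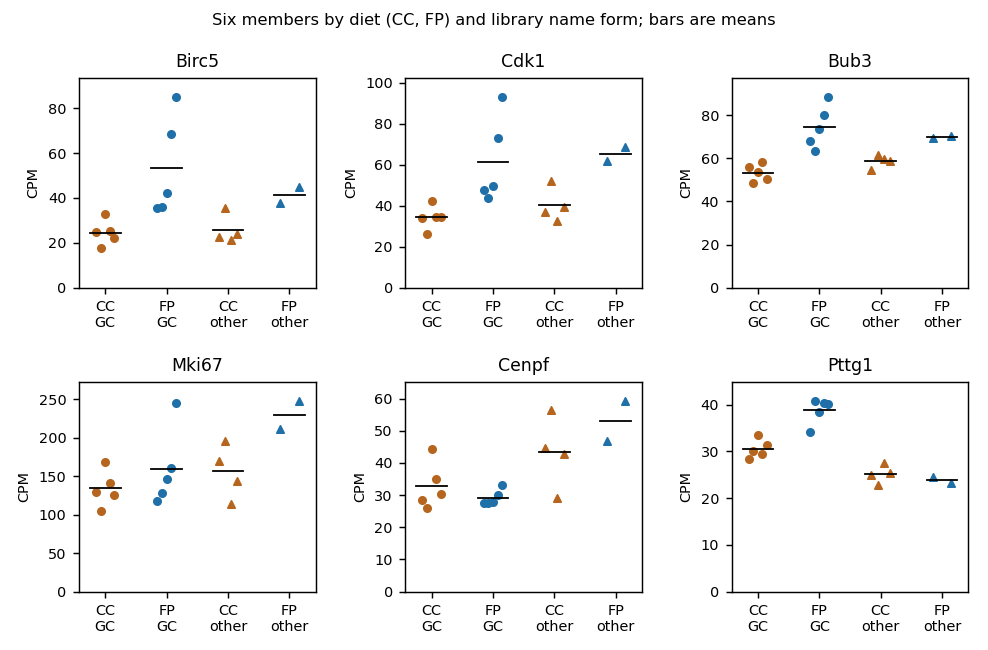
CPM of 6 members in each library, by diet (CC corn oil/cellulose, FP fish oil/pectin) and library name form, with horizontal bars at the group means and axes from 0. Birc5, Cdk1 and Bub3 are separated by diet within each form, Mki67 and Cenpf overlap in GC-named libraries, and Pttg1 is higher with fish oil/pectin within the GC form (34.1 to 40.8 CPM against 28.4 to 33.4 CPM) but not outside it.

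Of the 9 centromere and kinetochore genes 6 rose, with a median of 0.52. Spc24, Spc25, Ndc80 and Nuf2 form the 4-part complex that grips microtubules, and all 4 rose. Spc24 (chromosome 9, 21755442 to 21760303, minus strand) was at 9.33, 11.9, 12.1, 13.1 and 16.01 CPM with corn oil/cellulose and 14.3, 18.5, 19.5, 29.04 and 32.4 CPM with fish oil/pectin in GC-named libraries, and at 10.7, 11.7, 14.05 and 15.04 CPM and 19.7 and 22.02 CPM in the others. CC 2 and 7 lay within the fish oil/pectin range, and the rise was 0.81 ± 0.15 (adjusted p = 0.000883). Ndc80 was at 9.56, 12.3 and 14.9 CPM and 13.3, 17.5 and 26.9 CPM (lowest, median, highest) and rose by 0.63 ± 0.14 (adjusted p = 0.00247). It did not overlap between diets within either name form. Nuf2 rose by 0.57 ± 0.17 (adjusted p = 0.0130) and Spc25 by 0.54 ± 0.13 (adjusted p = 0.00431).

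Cenpa, the histone H3 variant that marks the centromere, rose by 0.52 ± 0.16 (adjusted p = 0.0128). Kif2c, a kinesin that shortens wrongly attached microtubules, rose by 0.41 ± 0.14 (adjusted p = 0.0261), a call lost without FP 2, 6 or 7 or CC 6 (adjusted p from 0.0501 to 0.0592). The 3 longest genes of the group showed no difference that passed. Cenpf (chromosome 1, 189640606 to 189688086, minus strand), a large protein of the outer kinetochore, was at 25.98, 34.9 and 56.5 CPM with corn oil/cellulose and 27.5, 30.03 and 59.3 CPM with fish oil/pectin (log2 0.00017 ± 0.14, adjusted p = 0.999). Knl1, the scaffold on which the checkpoint proteins assemble, was at 10.6, 17.1 and 27.7 CPM and 8.80, 15.2 and 30.1 CPM (0.012 ± 0.14, adjusted p = 0.956). Cenpe, a kinesin that moves chromosomes towards the spindle equator, was at 0.10 ± 0.14 (adjusted p = 0.585).

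Of the 7 genes of the central spindle and cytokinesis 3 rose, with a median of 0.32. Racgap1 (chromosome 15, 99620496 to 99651656, minus strand), a subunit of centralspindlin, was at 35.97, 39.8, 40.9, 45.9 and 54.5 CPM with corn oil/cellulose and 45.3, 45.5, 54.9, 69.8 and 77.2 CPM with fish oil/pectin in GC-named libraries, and at 37.2, 46.9, 47.2 and 62.6 CPM and 67.9 and 76.2 CPM in the others. It rose by 0.48 ± 0.13 (adjusted p = 0.00660), with overlap in GC-named libraries and none in the others. Prc1, which crosslinks the antiparallel microtubules of the midzone, was at 28.5, 40.9 and 52.1 CPM and 34.5, 52.00 and 63.8 CPM (lowest, median, highest) and rose by 0.40 ± 0.13 (adjusted p = 0.0176), and did not pass with no name form term (0.0947) or in the GC-named libraries fitted alone (0.126). A gene on the opposite strand, Rccd1, overlaps 11.1% of its exon bases.

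Kif20a, a midzone kinesin, rose by 0.36 ± 0.13 (adjusted p = 0.0348). That call was lost without CC 1, 4, 5 or 6 or FP 1, 2, 6 or 7 (adjusted p from 0.0527 to 0.0975), and 29.3% of its exon bases overlap Cdc23 on the opposite strand. Its relative Kif20b was at 0.32 ± 0.13 (adjusted p = 0.0581) and Kif23, the motor subunit of centralspindlin, at 0.27 ± 0.12 (adjusted p = 0.0905). Both passed without CC 2 or 7 or FP 4, and Kif20b also without CC 8 or FP 3 (lowest adjusted p 0.0209 for Kif20b and 0.0244 for Kif23). Anln, the anillin that shapes the contractile ring, was at 0.094 ± 0.12 (adjusted p = 0.572), and Ect2, which activates RhoA at the cleavage site, at 0.065 ± 0.13 (adjusted p = 0.712).

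Of the 7 genes of condensin, topoisomerase II and Ki-67 4 rose, with a median of 0.36. Ncaph (chromosome 2, 127103809 to 127133954, minus strand), the condensin I subunit that closes its ring, was at 18.7, 22.5, 24.7, 25.6 and 27.6 CPM with corn oil/cellulose and 24.97, 31.6, 32.4, 43.6 and 47.1 CPM with fish oil/pectin in GC-named libraries, and at 23.01, 23.6, 29.3 and 34.00 CPM and 41.3 and 42.3 CPM in the others. The diets overlapped through FP 4 and CC 2, and the rise was 0.60 ± 0.12 (adjusted p = 0.00141). Ncapd2, another subunit, was at 65.2, 79.9 and 99.1 CPM and 76.2, 99.7 and 123 CPM (lowest, median, highest) and rose by 0.32 ± 0.092 (adjusted p = 0.00977). Ncapg rose by 0.54 ± 0.15 (adjusted p = 0.00979), with 13.4% of its exon bases under a gene on the opposite strand. The ring's core ATPases did not pass, at 0.24 ± 0.098 for Smc4 (adjusted p = 0.0560) and 0.19 ± 0.13 for Smc2 (adjusted p = 0.269). Smc4 passed without CC 2 or 7 or FP 3, 4 or 5 (0.0206 to 0.0444).

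Top2a and Mki67 are the usual transcripts by which proliferating cells are recognised. Top2a, which untangles sister chromatids, was at 96.6, 126 and 195 CPM with corn oil/cellulose and 108, 189.8 and 272 CPM with fish oil/pectin and rose by 0.47 ± 0.14 (adjusted p = 0.0148), and did not pass with no name form term (0.0752), with no filter on low counts (0.0527) or in the GC-named libraries fitted alone (0.127). Mki67 (chromosome 7, 135689784 to 135716361, minus strand), whose protein coats mitotic chromosomes, was at 105, 126, 129, 141 and 169 CPM and 117, 128, 146, 161 and 245 CPM in GC-named libraries, and at 114, 144, 170.0 and 196 CPM and 211 and 248 CPM in the others. The diets overlapped in GC-named libraries, where FP 7 alone lay above every corn oil/cellulose library. The difference of 0.36 ± 0.15 did not pass (adjusted p = 0.0604). It passed without CC 2 or 7 or FP 3 or 4 (0.0274 to 0.0466), with DESeq2 (0.0479) and with a trend on length removed, as described with the lengths.

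The size of the difference varied with gene length. Over the 47 members the log2 fold change and the log2 summed exon length had a Pearson r of -0.53 (Spearman rho -0.57), a description across genes that share the same libraries. All of the 16 shortest members (1531 to 4329 bp) rose, with a median of 0.60, 9 of the next 15 (4338 to 6341 bp) with a median of 0.39, and 8 of the 16 longest (6493 to 15433 bp) with a median of 0.34. Over all 13764 genes tested that had a length r was -0.37, with medians of 0.092, -0.052 and -0.19 in the same 3 length ranges. The members' median lay above that of all genes of like length by 0.51, 0.44 and 0.53.

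The relation with length was steeper in the GC-named libraries, and the difference between the name forms itself rose with length over the members (r = 0.58). In GC-named libraries r was -0.58 over the members and -0.42 over all genes, against -0.16 and -0.086 in the other libraries. The slope of a library's log2 levels on log2 exon length, relative to the other libraries, was 0.017 to 0.062 in GC-named corn oil/cellulose and -0.18 to -0.068 in GC-named fish oil/pectin libraries, and 0.070 to 0.11 and 0.059 to 0.076 in the others. With each library's trend on exon length removed before the fit, 39 members rose, where 21.8% of genes tested did, r was -0.064 and the median was 0.50. Cenpf (log2 0.32, adjusted p = 0.0477) and Mki67 (0.58, adjusted p = 0.00959) then passed, as did Cdc25c, Espl1, Kif20b, Kif23 and Smc4 (adjusted p from 0.0127 to 0.0481), and Pttg1 (0.087, adjusted p = 0.291) no longer did. Hmmr, Bub1, Cenpe, Knl1, Ect2, Anln and Smc2 did not pass in that fit either. With the trend on principal transcript length removed in its place, Bub1 (0.0414), Cenpe (0.0340) and Smc2 (0.0273) also passed and Cdc25c, Kif23, Cenpa and Spc25 did not (0.0532 to 0.140). RNA quality was not measured in the files, and its part in the length dependence was not tested.

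**Figure D4:**
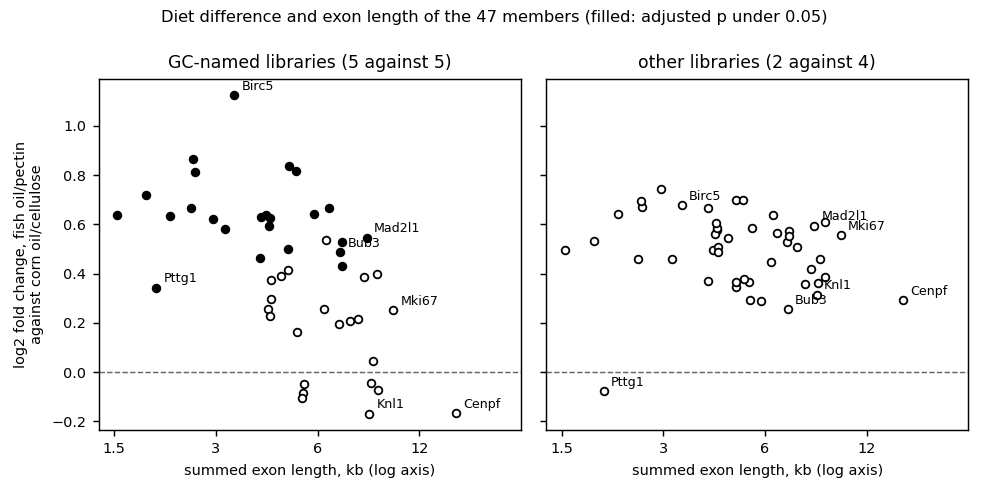
Log2 fold change of the 47 members, fish oil/pectin against corn oil/cellulose, against summed exon length in kb (log axis), for the GC form (left) and for all remaining libraries (right), from a joint edgeR fit. Filled points have an adjusted p under 0.05, and the downward slope is seen in GC-named libraries (r = -0.58) and is weak in the others (r = -0.16).

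Within the GC-named libraries alone, in a joint fit with a diet effect for each name form, 24 members rose and 0 fell, where 23.5% of genes tested rose. The median was 0.43, and 7 members had values below 0, from -0.17 for Knl1 to -0.045 for Cenpe. A fit to these 10 libraries alone had 22 higher, where 20% of genes tested were, without Tpx2, Kif11, Bub1b, Nuf2, Kif2c, Prc1, Racgap1, Kif20a, Top2a, Ncapd2 and Ncapg (adjusted p from 0.0544 to 0.325). In the other libraries, 2 against 4, the joint fit had no member passing, and of all genes tested 0% did. In that fit and those libraries 25 members had an unadjusted p under 0.05, all with higher values with fish oil/pectin, against 9.59% of genes tested, and 46 of 47 values were above 0 with a median of 0.51. The highest were 0.74 ± 0.23 for Aurkb and 0.70 ± 0.24 for Cdca8. A fit to these 6 libraries alone had 10 members higher, where 4.34% of genes tested were. Every fish oil/pectin library lay above every corn oil/cellulose library for 34 members in the other libraries, as for 18.3% of genes tested, and for 6 members in GC-named libraries (Cdk1, Birc5, Cdca8, Bub3, Pttg1 and Ndc80), as for 15.4%.

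The name forms themselves differed for 14 members at equal diet, a smaller share than over all genes tested. Higher levels in libraries without GC were found for 13, where 20.8% of genes tested were higher, and 1 was lower, Pttg1, where 20.4% were. Knl1 (0.87 ± 0.14, edgeR adjusted p = 0.000243), Smc2 (0.80 ± 0.13, adjusted p = 0.000258) and Hmmr (0.77 ± 0.13, adjusted p = 0.000257) differed most, and longer members more than shorter ones (r = 0.59 with log2 exon length over the 47). These 3 also had diet differences that did not pass. The count of 14 was 8 without FP 2, 24 without CC 3, 25 without FP 7 and 22 without CC 7.

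Pttg1 (chromosome 11, 43420250 to 43426251, minus strand), the securin gene, was the exception among the members. It was at 28.4, 29.5, 30.1, 31.5 and 33.4 CPM with corn oil/cellulose and 34.1, 38.3, 40.2, 40.5 and 40.8 CPM with fish oil/pectin in GC-named libraries, and at 22.9, 25.1, 25.4 and 27.5 CPM and 23.3 and 24.4 CPM in the others. It was higher with fish oil/pectin in the first (0.34 ± 0.07) and not in the second (-0.078 ± 0.098). The difference between the forms was -0.42 ± 0.12 (edgeR adjusted p = 0.0415), and Pttg1 was the 1 member of 47 to pass that test, where 8.77% of genes tested did. It did not pass without any 1 of FP 1, 2, 4, 5 and 6 or of CC 1, 3, 4, 5, 6 and 8 (adjusted p from 0.0512 to 0.228), nor with the trend on exon length removed (-0.26, adjusted p = 0.223). Over all libraries its rise of 0.20 ± 0.075 (adjusted p = 0.0380) was lost without CC 2, 5, 6, 8 or 9 or FP 4, 5, 6 or 7 (adjusted p from 0.0538 to 0.0846).

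Across the 16 libraries the members followed each other closely. The median Pearson r of log2 CPM over the 1081 pairs was 0.83, a description of points that share library, diet and scaling. Ccna2 followed the mean of the other members most closely, at 0.99, and 25 members had an r of at least 0.9. The 7 lowest were under 0.7, with Hmmr (0.61), Cenpf (0.59), Knl1 (0.58), Ect2 (0.65), Anln (0.67) and Smc2 (0.66) between 0.58 and 0.67, and Pttg1 the lowest, at -0.044. The first 6 of these, with Cenpe, are the 7 members whose log2 fold change was below 0 in GC-named libraries.

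Levels per kb of summed exon, with corn oil/cellulose, spanned a wide range. Summed exon length counts the exons of all annotated transcripts and can far exceed the principal transcript. Ube2c has 2600 bp summed and 967 bp in its principal transcript, Pttg1 2000 and 948 bp, and Ccnb2 1531 bp by both. The order given here therefore holds for summed exon length only. Ccnb2 was the highest at 26.4 CPM per kb, followed by Cdc20 at 20.9, Ccna2 at 18.1, Smc4 at 18.03 and Top2a at 15.5 CPM per kb. Cdc25c at 1.31, Ndc80 at 1.90 and Knl1 at 2.06 CPM per kb were the lowest. With fish oil/pectin Ccnb2 remained the highest, at 39.4, and Cdc25c the lowest, at 1.70 CPM per kb.

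Among mitotic genes outside the 47, 51 of 76 tested rose and 1 fell, with a median of 0.42. Ncaph2, a condensin II subunit, rose by 0.35 (adjusted p = 0.000389), Cenpm, of the inner kinetochore, by 1.07 (0.000483) and Pmf1, of the Mis12 complex, by 0.65 (0.000566). Hjurp, the chaperone that loads Cenpa, was the one that fell, by 0.24 on the log2 scale (adjusted p = 0.0165). Of the 76, 29 rose without FP 6 and 7, and 8 did with the non-epithelial score as a covariate.

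Of the 16 subunits and cofactors of the APC/C 9 rose and 0 fell (median 0.21), where 22.1% of all genes tested rose. The lowest p-values were those of Anapc11 (0.45, adjusted p = 0.00120), Ube2s (0.57, 0.00163) and Anapc13 (0.42, 0.00179). In GC-named libraries 11 of the 16 rose and 2 fell (median 0.26), where 23.5% and 22.3% of genes tested did. In the others none passed and the median was 0.10, with Anapc11 at 0.15, Ube2s at 0.39 and Anapc13 at 0.12. The diet difference itself differed between the name forms for 2 of the 16. Cohesin, which holds sister chromatids together until anaphase, had 1 of 12 genes higher and 4 lower (median -0.15), where 20.6% of all genes tested were lower. In GC-named libraries 7 of the 12 were lower (median -0.28), where 22.3% of genes tested were. In the others none passed, 8 of 12 values were above 0 and the median was 0.14. The diet difference itself differed between the name forms for 4 of the 12, where 8.77% of genes tested did. Nipbl and Mau2, the loader of cohesin, fell by 0.39 and 0.34 on the log2 scale (adjusted p = 0.000824 and 0.000928), and the acetyltransferase gene Esco1 fell by 0.24 (0.0113). Esco2, its counterpart in S phase, rose by 0.55 (0.00820). The cohesin genes had a median exon length of 7461 bp, against 5177 bp for the members. With the length trend removed the count of lower genes over the 7 lists other than the 76 mitotic genes went from 14 to 6. That count pools the lists and does not show how the cohesin genes alone changed.

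Among 22 genes of augmin, gamma-tubulin complexes and tubulins 11 rose and 3 fell (median 0.32). Stmn1, a microtubule destabiliser, rose by 0.64 (adjusted p = 0.000477), the augmin subunit Haus1 by 0.57 (0.000566) and Tubb5, a beta-tubulin, by 0.81 (0.000630). The gamma-tubulin complex genes Tubgcp3, Tubgcp4 and Tubgcp5 fell by 0.24, 0.21 and 0.25 on the log2 scale (adjusted p = 0.00758, 0.0166 and 0.0285). In libraries without GC, Tubgcp3 and Tubgcp5 were at 0.026 and 0.081.

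Of 23 transcription regulators of these promoters 7 rose and 3 fell, with a median of 0.062. These counts are near the 22.1% and 20.6% of all genes tested, and the single genes are given as a description. Rbbp4, a subunit of the MuvB core, rose by 0.29 (adjusted p = 0.00109), E2f2 by 0.59 (0.00214) and E2f1 by 0.83 (0.00410). Mybl2, which joins MuvB as cells leave S phase, rose by 0.69 (0.00432) and Foxm1, which follows it, by 0.40 (0.0190). The retinoblastoma family genes Rbl2 and Rb1 fell by 0.38 and 0.21 on the log2 scale (0.00485 and 0.00600), and the E2F partner gene Tfdp2 by 0.22 (0.0326).

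Of 9 genes of the G1 phase 5 rose and 1 fell (median 0.24). Cdk4 rose by 0.51 (adjusted p = 0.000815), Ccne1 by 0.96 (0.00305) and Ccnd1 by 0.54 (0.0105), and Cdk6 fell by 0.29 (0.0186). Among 11 brakes of the cycle 2 rose and 3 fell (median -0.034), also near the shares of all genes tested. The inhibitor genes Cdkn2c and Cdkn2d rose by 0.50 (0.00125) and 0.43 (0.00772), and the antiproliferative genes Tob1 and Btg2 and the cyclin gene Ccng2 fell by 0.36, 0.39 and 0.33 on the log2 scale (0.00125, 0.00158 and 0.00352). Cdkn1a, the p21 gene, was at -0.048 (adjusted p = 0.794), with 0.17 in GC-named libraries and -0.47 outside them. All 23 genes of replication licensing and forks rose, with a median of 0.62, led by Tyms (0.72, adjusted p = 0.000518), Gmnn (0.62, 0.000540) and Gins2 (0.81, 0.000671). Their medians were 0.54 (GC form) and 0.81 (other form), against 0.43 and 0.51 for the members, and the difference between these lists was not tested.

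**Figure D5:**
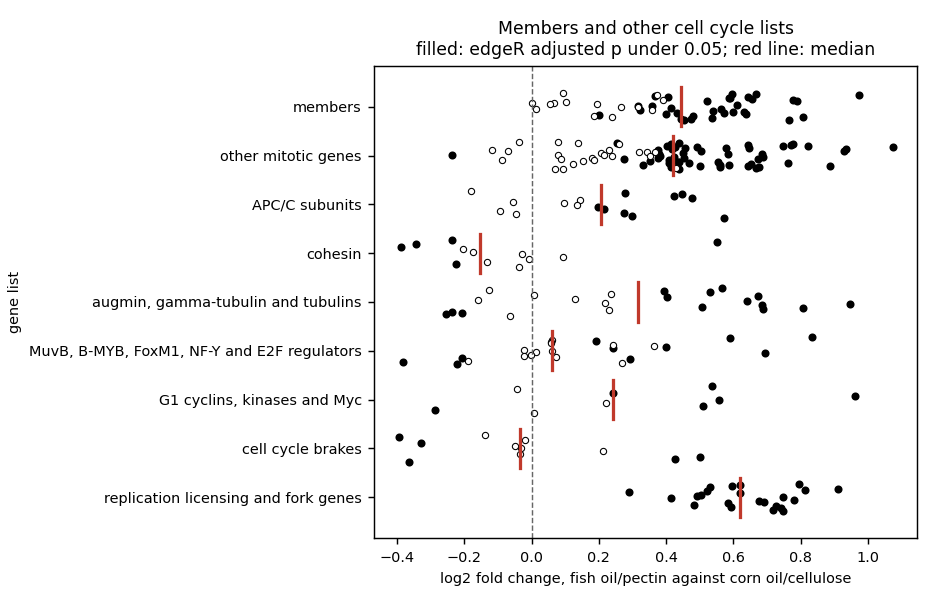
Log2 fold change of every tested gene of the members and of 8 further cell cycle lists, fish oil/pectin against corn oil/cellulose, from the edgeR fit to 16 libraries, with a red line at each list's median. Filled points have an adjusted p under 0.05. The medians run from -0.15 for cohesin to 0.62 for replication genes, with the members at 0.44.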

How the data were processed

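RNA from colonocytes of mice on 2 diets was sequenced, and the authors deposited raw counts of reads per gene symbol, 1 column per library, with no normalisation, as read from the file. The submitters' processing notes name STAR 2.6.0a and HTSeq 0.11.1, on build GRCm38. For neither the strand setting nor the annotation is a value given in the sources used here. The table held 54392 symbols, and 0 columns of other samples. Libraries are numbered as biological replicates in the labels without a statement on which mouse each is from, and p-values therefore describe the spread among libraries, which may be technical. Within a diet, 57 pairs of libraries had a chi-square of 8.20 to 141 per degree of freedom over genes with at least 20 counts, beyond sampling noise in every pair. Genes were matched to GENCODE M21 for coordinates and summed exon length, and 98.8% of symbols matched.

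The robust quasi-likelihood test of edgeR 4.0.16 (in R 4.3.3) compared the diets after TMM scaling and filterByExpr by diet, which kept 13825 genes with 99.9% of counts. Library name form (GC or not) was a term, and p-values were adjusted by Benjamini-Hochberg over all genes tested, with a threshold of 0.05. Effects within name forms and their difference came from a joint fit. CPM uses TMM factors, and centred log2 CPM a prior count of 2. The main fit was run on simulated counts with set diet changes. These counts held no name form effect and no trend on length, so the run cannot show how the fit handles either. The members, gene lists and markers were chosen with earlier results of these data known. Named with levels were the 2 members of lowest p in each function plus Mki67, Top2a, Ccnb1, Cdk1, Plk1, Aurkb and Bub1, then the 3 highest and lowest members, all that did not pass, and the 3 lowest p per direction in each further list. Birc5, Mybl2, Foxm1, Cdkn1a, Cenpf and Pttg1 were given more space after their values were seen.

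Alternatives were other scalings and filters, DESeq2 1.42.0, limma 3.58.1 voom with quality weights, no name form term, a block for the replicate number, subsets of libraries, each library left out, covariates for a non-epithelial marker score and for sex (over 100 Y-linked counts taken as male), a loess fit (span 0.3) of levels on exon length taken out per library, and other thresholds. Chosen after the data were seen were the filter by design matrix, leaving out fish oil/pectin libraries 6 and 7, and the trend on principal transcript length. Promoter windows are from RefSeq (GRCm38.p6) for 39 members. No window was used for Kif20a, Tpx2, Cdc25c, Incenp, Aurkb, Smc4, Ccna2 or Spc24.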

Additional observations from a re-analysis of the deposited data

Results flagged for a closer look

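In 96 groups of libraries, taken as each member's CPM and the mean over members within each diet, 3 had 1 library set apart from the others beyond Dixon's 95% critical value, and chance alone flags about 1 in 20 groups. Cdc25c was at 10.2 CPM in CC 2, where the other 8 libraries of that diet were at 5.11 to 7.37 CPM. Spc25 was at 16.1 CPM in the same library, against 8.62 to 12.4 CPM in the others. CC 2 also had the highest mean member level of its diet (0.31). Incenp was at 109 CPM in FP 7, against 54.8 to 77.2 CPM in the other libraries of that diet, and this library had the highest member mean among GC-named libraries (0.54). Removing the library that stood apart kept Spc25 and Incenp past the threshold.

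Pttg1 was listed because its diet effect differed between the name forms by -0.42 (libraries without GC minus GC-named) in the edgeR interaction test. It was higher in 5 of 5 GC-named fish oil/pectin libraries than in any GC-named corn oil/cellulose library, and the 2 other fish oil/pectin libraries lay within the range of the 4 other corn oil/cellulose libraries.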

How the results depend on the processing

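The 33 members that rose stayed within 1.5 times that count (22 to 39) under other scalings, filters and thresholds, DESeq2, voom, no name form term, sex as a covariate, GC-named libraries alone and length trends removed, and 0 fell in any of these. The count was 10 in libraries without GC, 18 in libraries numbered in the 700s, 4 with the non-epithelial score, 20 without FP 6 and 7, and 28 to 38 with 1 library left out. Over all genes tested 4.34% rose in libraries without GC, 1178 of 14028 in the 700s, 3.32% with the score and 15.4% without FP 6 and 7. With 1 library left out, 2624 of 13753 (without CC 6) to 3087 of 13764 (without CC 3) did. The main fit had 22.1%, and GC-named libraries alone 20%. These shares also stand beside the counts of other higher genes in the same settings below. Of the 33, 28 passed whichever library was left out, and 3 passed in all 33 settings. The 51 other mitotic genes that rose were 30 in GC-named libraries, 17 in the others, 21 in the 700s, 8 with the score, 29 without FP 6 and 7, and 30 at an adjusted p under 0.01. Their 1 lower gene became 4 in GC-named libraries and 0 with no name form term, in libraries without GC, with the score and with either length trend removed. In the 7 further lists the 58 higher became 23 in the 700s and 26 with the score, and the 14 lower became 9 with no name form term, 5 in libraries without GC, 5 in the 700s, 2 with the score, and 6 and 5 with the exon and principal transcript length trends removed.

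The r of -0.53 with exon length was -0.16 in libraries without GC, -0.064 with the exon length trend removed and -0.0020 with that of principal transcripts, which follows from removing the trend. Leaving out 1 library gave 0 to 1 members passing in libraries without GC (1 without FP 7), 0 to 1 differing between forms, and 8 to 25 between forms at equal diet, 23 at an adjusted p under 0.1. In the 150 bases before the start, 35.9% of members held CHR letters and 30.8% both words (11.2% and 2.85% of all windows).

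Members near 0 changed sign in some settings. With no name form term Hmmr was at -0.030, Cenpf at -0.056 and Knl1 at -0.071. In GC-named libraries alone Hmmr was at -0.10, Cenpe at -0.066, Cenpf at -0.19, Knl1 at -0.19, Ect2 at -0.13, Anln at -0.094 and Smc2 at -0.067. In the others alone Pttg1 was at -0.065, and at -0.031 with the principal transcript trend removed. By total counts Hmmr was at -0.014, Cenpf at -0.070, Knl1 at -0.057 and Ect2 at -0.0039. Cenpf was also at -0.011 with DESeq2 size factors and at -0.011 with the 1 CPM filter, -0.012 with DESeq2, -0.0094 with voom, -0.016 with sex as a covariate and -0.013 without FP 6 and 7. Knl1 was at -0.0028, -0.034 and -0.083 with DESeq2, with voom and without FP 6 and 7. Leaving out 1 library gave -0.096 to 0.091 for Cenpf, -0.078 to 0.10 for Knl1, -0.0012 to 0.12 for Hmmr and -0.016 to 0.17 for Ect2. The cause was not tested.

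Replicate numbers 1 to 7 occur in both diets, and residuals of same-numbered libraries had correlations from -0.075 to 0.51. The residuals had the diet mean removed and kept differences between name forms. Both libraries of numbers 1 (0.51) and 2 (0.43) lacked GC, and numbers 3 (0.0087) and 4 (-0.075) joined the 2 forms. Numbers 5 to 7, all GC-named, were at 0.059 to 0.26. The correlations therefore cannot show whether the numbers pair libraries. Number 1 was the 1 of 7 whose corn oil/cellulose library correlated best with its own number. With the number as a replicate block and no name form term, 29 members rose at a median of 0.40, where 2847 of 13671 genes tested rose. In blocks 3 and 4 the corn oil/cellulose library lacked GC and the fish oil/pectin library was GC-named, so diet and form are mixed there. In this fit Mki67 passed (edgeR adjusted p = 0.0448), and Nusap1 (0.116), Kif11 (0.455), Bub1b (0.0528), Prc1 (0.142) and Top2a (0.0677) did not. Hmmr was at -0.11, Cenpf at -0.12, Knl1 at -0.23, Ect2 at -0.070, Anln at -0.045 and Smc2 at -0.017. At equal diet all of these last members were higher in libraries without GC, by 0.58 (Cenpf) to 0.87 (Knl1) on the log2 scale. Total counts limit the low members most, with Cdc25c at 84 counts in 1 library. With 2 fish oil/pectin libraries without GC, that name form alone gives wide errors.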
